A study of Mus musculus with 6 samples.

Results

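Densely packed 5hmC domains were defined here as windows of 100 kb that hold 25 or more mapped regions of 5-hydroxymethylcytosine (5hmC). Each region on chr1 to chr19 was placed in a fixed window by its midpoint, and regions in windows with at least 25 midpoints were kept. The rule used positions only and no read count. The regions are themselves calls of 5hmC, however, so their number in a window is not independent of the level by design. It selected 29108 of the 192196 regions in the table, or 15.4% of the 189495 regions on autosomes. These regions lay in 971 of the 21441 autosomal windows that held at least 1 midpoint (4.53%).

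5hmC is made when a Tet enzyme oxidises the methyl group of methylated cytosine. The mark is stable, is abundant in brain compared with most other tissues, and is known to lie within genes and at regulatory elements rather than evenly along the chromosome. Tet1 belongs to a small enzyme family whose other members can also make 5hmC. Regions that lie close together are therefore stretches of the genome where the mark was called again and again over a short distance.

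The 4 libraries compared were 2 from Tet1 knockout (KO) mice and 2 from wild-type (WT) mice, numbered KO1, KO2, WT1 and WT2 after the sample numbers in the labels. The labels give the material as brain, but the study's own text describes astrocytes, a glial cell type, cultured from newborn pups (P1 in its results, P1 to P3 in its methods) of constitutive Tet1 KO mice and of WT mice. No other treatment, strain or allele is given for either group. No label says whether sample 1 and sample 2 of a genotype came from separate animals or cultures, so the p-values measure the spread between these libraries only, which may be technical. A lower level can mean fewer cells carrying the mark or less of it in each cell, which bulk DNA cannot separate. Every level is a share of its own library, so a change common to all regions would not show.

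Total counts per library were 17408262 (KO1), 18906488 (KO2), 16819455 (WT1) and 19288900 (WT2), so depth differed little. The 25 regions with the highest mean count took 11.5% of all counts in KO1, 36.5% in KO2, 17.8% in WT1 and 34.1% in WT2. KO2 stood apart from the others in how its remaining counts were spread, and it did so along the density of regions, as described further on. Results that rest on the KO libraries are therefore also given without 1 of them. The deletion of Tet1 was not checked in these counts, because regions were not assigned to genes.

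The windows formed a continuous series rather than a separate class. Over all autosomal windows the median was 7 midpoints, over the dense windows it was 29, and the most was 52. There were 181 windows with 24 midpoints, just outside the threshold, and 153 windows with 25, just inside it. The median window of 24 had 14.9 kb covered by regions and a 5hmC level of 7.54 CPM per kb (counts of a library scaled to a fixed total, per kb of region). The median window of 25 had 15.95 kb covered and a level of 7.27 CPM per kb. The median log2 ratios of KO to WT were 0.08 and 0.07 in these 2 classes. The plot of windows by number of regions shows no gap at the threshold.

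**Figure D1:**
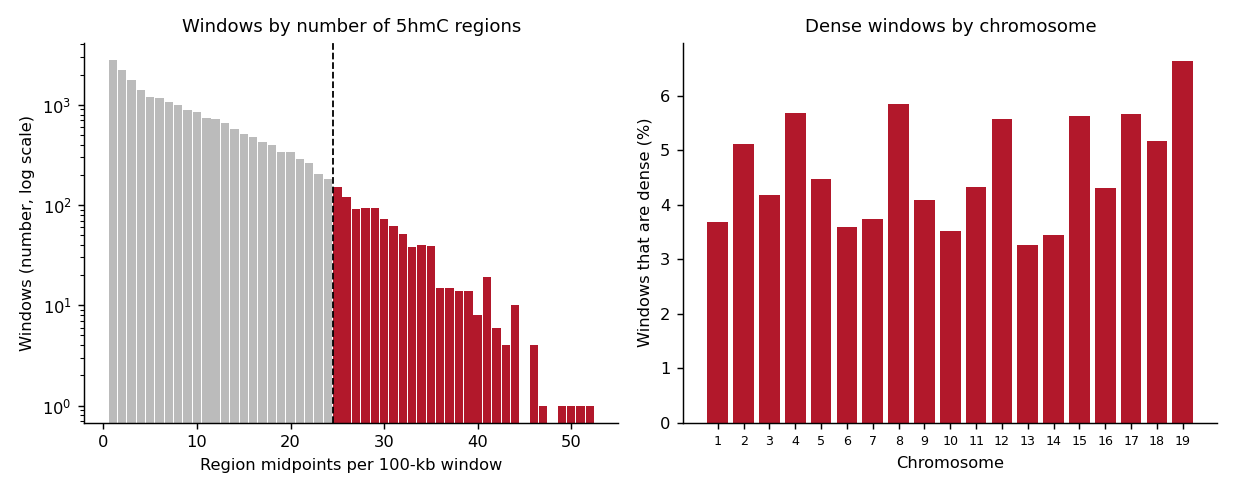
Left, number of autosomal 100-kb windows (log scale) against the region midpoints each held. Red bars to the right of the dashed line are the 971 dense windows, and the counts fall without a break from the windows of 24 midpoints (181) to those of 25 (153). Right, percentage of the windows of each chromosome that were dense, lowest on chr13 (3.25%) and highest on chr19 (6.64%).

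Dense windows occurred on every autosome. They made up 3.25% of the windows of chr13, the lowest share, and 6.64% of those of chr19, the highest. By number, chr2 had the most with 83 and chr4 followed with 77. When each chromosome was cut into 5 equal stretches from its start, dense windows made up 3.45%, 3.78%, 3.58%, 5.21% and 6.44% of the windows in turn. The share was thus higher in the last 2 stretches, toward the end of the chromosome with the larger coordinates.

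Most dense windows stood alone. The 971 windows formed 709 runs of adjacent dense windows, of which 527 were a single window, 127 had 2 windows, 38 had 3, 11 had 4, 5 had 5 and 1 had 7. In all, 444 dense windows (45.7%) touched another dense window. The windows on either side of a dense window had a median of 19 midpoints, above the 7 of all windows, and the median declined to 14 at 200 kb and to 10 at 600 kb. The 5hmC level declined alongside, from a median of 7.45 CPM per kb in the dense windows to 7.12 at 100 kb and 6.46 at 600 kb after them. Regions were not gathered in a small corner of the window in most cases, since 815 of the 971 dense windows had at least 10 midpoints on each side of the window's middle, that is, in each stretch of 50 kb.

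Regions in dense windows were wider than other autosomal regions. Their median width was 531 bp (middle 50% of regions 354 to 857 bp), against 423 bp (301 to 649 bp) elsewhere, a difference of 108 bp. The narrowest region in either set was 180 bp. Regions over 2 kb numbered 868 among those in dense windows (2.98%) and 1373 among the rest (0.856%), so 38.7% of all such broad regions lay in dense windows. The median width rose along the whole scale of density, from 325 bp in windows of 1 to 4 midpoints to 567 bp in windows of 35 or more. One list of regions served all 4 libraries, so widths have no replicate and were not tested.

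The widest region of all autosomes lay in a dense window, at chr11:117168938-117179611 (10674 bp; all coordinates are as in the table, whose build the submitters give as mm9). It was also the only 1 of the 25 regions with the highest mean count that fell in a dense window. It had 2379 counts in KO1, 2357 in KO2, 2292 in WT1 and 2368 in WT2. Per length this was 10.4, 14.3, 11.4 and 12.9 CPM per kb, so the KO libraries were the lowest and the highest and the genotypes overlapped. Its log2 ratio of KO to WT was 0.03 ± 0.30 (SE).

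Because they were both more numerous and wider, regions covered a median of 19.8% of a dense window, with a range of 11.4% to 50.4%. In other windows the median was 2.92%. The 971 dense windows thus held 18.99% of the whole length covered by autosomal regions. Regions on the autosomes did not overlap each other. The median gap between neighbours was 1479 bp in dense windows and 4048 bp elsewhere, and 38.2% of gaps were under 1 kb against 20.6%, differences that the rule itself brings about.

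The 5hmC level per length was higher in dense windows than elsewhere in each library. The median region in a dense window had 6.34 CPM per kb in KO1, 6.94 in KO2, 6.33 in WT1 and 6.57 in WT2. The median of the other autosomal regions was 5.80, 5.52, 5.69 and 5.57 CPM per kb in the same order. The ratio of dense to other was therefore 1.09, 1.26, 1.11 and 1.18, with a mean of 1.16 ± 0.073 (SD, n = 4 libraries). It was above 1 in 4 of 4 libraries, and the exact sign-flip permutation test over libraries gave a two-sided p of 0.13, the smallest it allows with 4 (adjusted p = 0.375 over the 3 library-level tests, exact). The KO mean was 1.17 ± 0.11 and the WT mean 1.15 ± 0.05 (SD, 2 libraries each), with KO1 lowest and KO2 highest. When only regions with 20 or more counts on average were used, the ratio was 1.08.

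Regions in the sparsest windows, those with 1 to 4 midpoints, separated the libraries far more. Their median level was 4.72 CPM per kb in KO1, 2.53 in KO2, 4.39 in WT1 and 3.72 in WT2. The ratio of dense to sparse was 1.34 in KO1, 1.44 in WT1, 1.76 in WT2 and 2.74 in KO2. The KO libraries held both ends of this order and the WT libraries lay between them. The levels of the 4 libraries crossed near 10 to 14 midpoints per window, as the plot of levels by density shows.

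**Figure D2:**
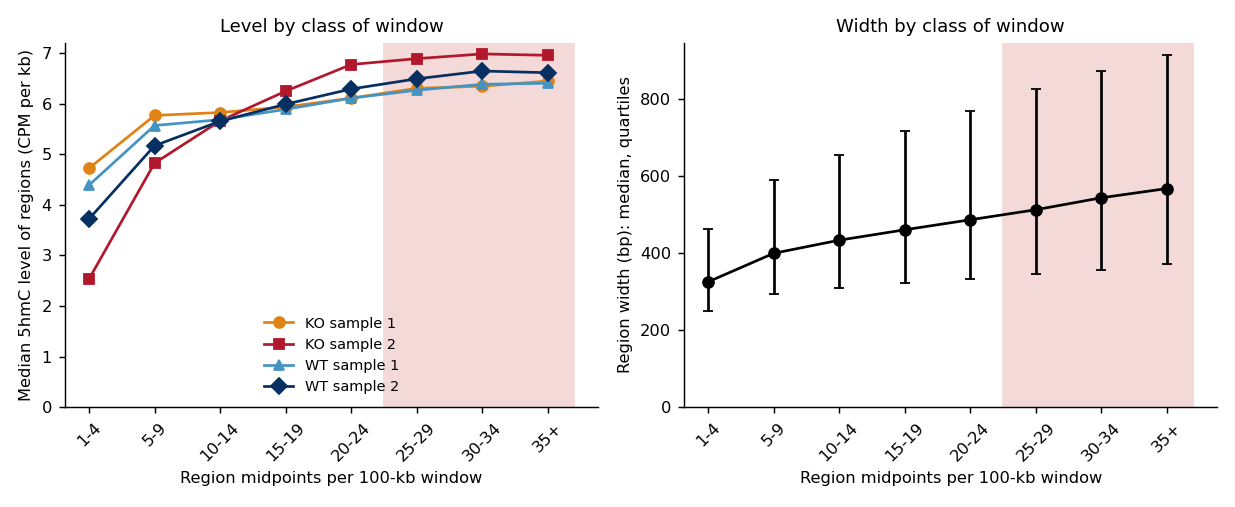
Left, median 5hmC level of regions (CPM per kb) in windows grouped by their number of midpoints, with 1 line per library. KO2 goes from the lowest level in windows of 1 to 4 midpoints (2.53) to the highest in windows of 35 or more (6.96), while KO1 and WT1 keep close together. Right, region width (bp) in the same groups as the median with bars from the 25th to the 75th percentile, rising from 325 to 567 bp. The shaded groups are the dense windows.

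Few regions of dense windows were empty. The number with 0 counts was 103 in KO1, 171 in KO2, 98 in WT1 and 51 in WT2, of 29108. This was 0.354%, 0.587%, 0.337% and 0.175%, against 2.29%, 3.43%, 1.91% and 1.33% of the other autosomal regions. A count of 0 allows a level of up to 3 counts, which is 0.14 to 0.19 CPM in these libraries. KO2 had the most empty regions in both sets and also the lowest depth after scaling. WT2, with the next lowest scaled depth, had the fewest, and the part of depth was not tested.

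The share of all autosomal counts that fell in dense windows was 18.0% in KO1, 13.9% in KO2, 16.8% in WT1 and 13.8% in WT2. The means were 15.96% ± 2.89 in KO and 15.31% ± 2.08 in WT (SD, 2 libraries each), and the difference of 0.644 percentage points was within the spread (exact permutation test, two-sided p = 0.667, adjusted p = 1.0, smallest possible p 0.33). The low libraries, KO2 and WT2, were those in which 25 regions took a larger share of all counts than in KO1 and WT1. Without these 25 regions the shares were 20.3%, 21.96%, 20.4% and 21.05%, and KO2 moved from near the lowest to the highest. The difference was then 0.409 percentage points (exact permutation test, two-sided p = 1.0). Without KO1 the difference in the full shares was -1.40 percentage points, and without WT2 it was -0.82.

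Levels of whole dense windows lay in a narrow band. A dense window had between 738 and 8502 counts in a library, with a median counting error of 1.92%, so counting error was small beside the differences between libraries. The level of a window, as the mean of the 4 libraries, was between 5 and 10 CPM per kb in 954 of 971 windows (98.2%), with a median of 7.45, a minimum of 4.85 and a maximum of 17.6. Within a dense window the level varied from region to region, with a median coefficient of variation of 0.39 (range 0.18 to 0.77). The region with the most counts held a median of 12.8% of its window's counts and at most 35.1%. In most dense windows the counts were thus spread over many regions rather than held by 1 strong region.

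Density and level were only loosely related among the dense windows. Over the 971 windows, Spearman's rho between the WT level and the number of midpoints was 0.07, and between the WT level and the median width of regions it was 0.35. These are descriptions over windows that share the same libraries, and neighbouring windows are not independent. By the mean level over all libraries, the densest window (52 midpoints) had 7.81 CPM per kb, and the window of highest level (17.6 CPM per kb) held 29 midpoints. High density and high level did occur together in chr11:3000000-3099999, which held 44 midpoints and had a mean level of 14.2 CPM per kb.

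The densest window was chr4:153900000-153999999, with 52 regions of median width 725 bp that covered 50.4 kb. It had 8182 counts in KO1, 6575 in KO2, 6875 in WT1 and 6899 in WT2. Per length this was 7.59, 8.45, 7.26 and 7.93 CPM per kb. The genotypes overlapped, and the log2 ratio of KO to WT was 0.10 ± 0.19 (SE). Its region of highest level, at chr4:153937306-153937770 (465 bp), had 9.25, 12.0, 9.51 and 15.3 CPM per kb in the same order, with the WT libraries farther apart than the genotypes.

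The window chr11:35700000-35799999 followed with 51 regions over 45.2 kb. Its levels were 8.40 and 9.75 CPM per kb in the KO libraries and 7.96 and 8.43 in the WT libraries. KO1 lay between the WT libraries and KO2 lay above them, for a log2 ratio of 0.17 ± 0.19 (SE). Its region of highest level, chr11:35783992-35785738 (1747 bp), had 10.97, 18.7, 12.5 and 11.9 CPM per kb, high in KO2 and alike in the other libraries.

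On chr7 the neighbouring windows chr7:56500000-56599999 and chr7:56400000-56499999 held 50 and 46 regions. The former had 6.44 CPM per kb in KO1, 10.05 in KO2, 7.14 in WT1 and 7.52 in WT2. The latter had 6.82, 9.95, 7.11 and 7.85 in the same order. By these scaled levels KO1 was the lowest library and KO2 the highest in both windows. The log2 ratios of 0.19 ± 0.25 and 0.19 ± 0.23 (SE) thus averaged opposite shifts under this scaling. In raw counts the former window had 6027 in KO1, 6779 in KO2, 5865 in WT1 and 5672 in WT2, so KO1 was not the lowest before scaling. The former window held the strongest single region of the 3 densest windows, chr7:56535394-56536650 (1257 bp), at 15.3, 21.0, 16.1 and 20.7 CPM per kb, high in sample 2 of both genotypes.

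Other windows among the 10 densest went the opposite way. The window chr4:82000000-82099999 had 49 regions that covered 27.8 kb, at 6.398 CPM per kb in KO1, 4.24 in KO2, 6.18 in WT1 and 5.44 in WT2. Here KO2 was the lowest and KO1 the highest, and the log2 ratio was -0.11 ± 0.22 (SE). The window chr18:47400000-47499999 (46 regions) had the same order of libraries, at 6.65, 5.18, 6.47 and 6.09 CPM per kb. In chr3:145400000-145499999 (47 regions) the levels were 6.71, 6.09, 6.69 and 6.92 CPM per kb, and KO2 was again the lowest.

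The remaining windows of the 10 densest were chr4:154500000-154599999 and chr3:97800000-97899999 with 46 regions each and chr8:83300000-83399999 with 44. The last was 1 of 10 windows with 44 midpoints and the one with the most covered length among them. The first had 7.18 CPM per kb in KO1, 10.4 in KO2, 7.96 in WT1 and 8.89 in WT2, again with the KO libraries outside the WT libraries on both sides. In chr3:97800000-97899999 the levels were 7.10, 7.34, 6.99 and 7.04 CPM per kb. In chr8:83300000-83399999 they were 7.29, 7.25, 7.13 and 6.82 CPM per kb. Both KO libraries lay above both WT libraries in the last 2 windows, by log2 ratios of 0.06 ± 0.17 and 0.08 ± 0.17 (SE), both smaller than their standard errors.

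**Figure D3:**
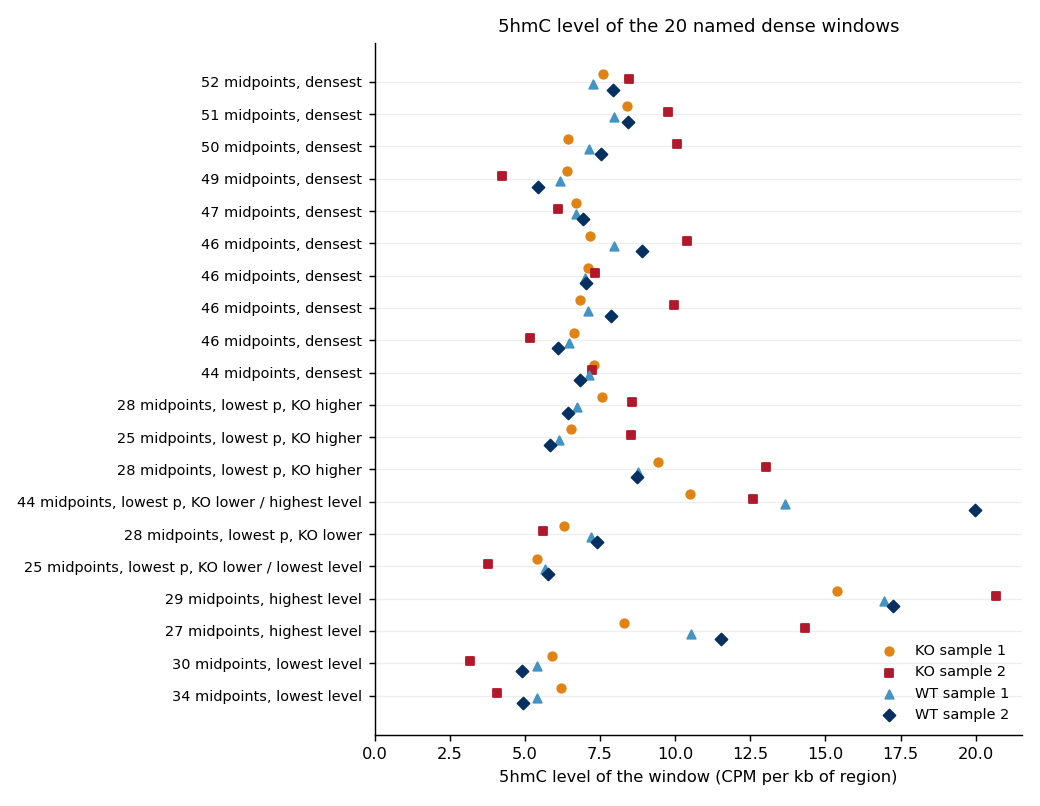
5hmC level (CPM per kb of region) of the named dense windows in each of the 4 libraries, with 1 row per window and 1 symbol per library. Rows are labelled with the number of midpoints and why the window was named, namely density, lowest unadjusted p with KO higher or lower, or level. KO2 (squares) lies farthest from the other libraries in most rows, on either side, and the row with 44 midpoints and the largest distance between genotypes has WT2 at 19.96 and KO1 at 10.5.

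The longest run of dense windows was chr11:87900000-88599999, with 7 adjacent windows and 236 regions that covered 188.0 kb (26.9%) of 700 kb. Its level was 7.10 CPM per kb in KO1, 8.27 in KO2, 7.06 in WT1 and 7.65 in WT2. The median gap between its regions was 1277 bp, yet 1 gap ran to 50352 bp in its sixth window, so the stretch was not filled evenly. Levels of single regions reached from 0.71 to 16.3 CPM per kb in KO1 and from 1.72 to 26.5 in WT2. The log2 ratios of KO to WT of its 7 windows were between -0.01 and 0.17.

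**Figure D4:**
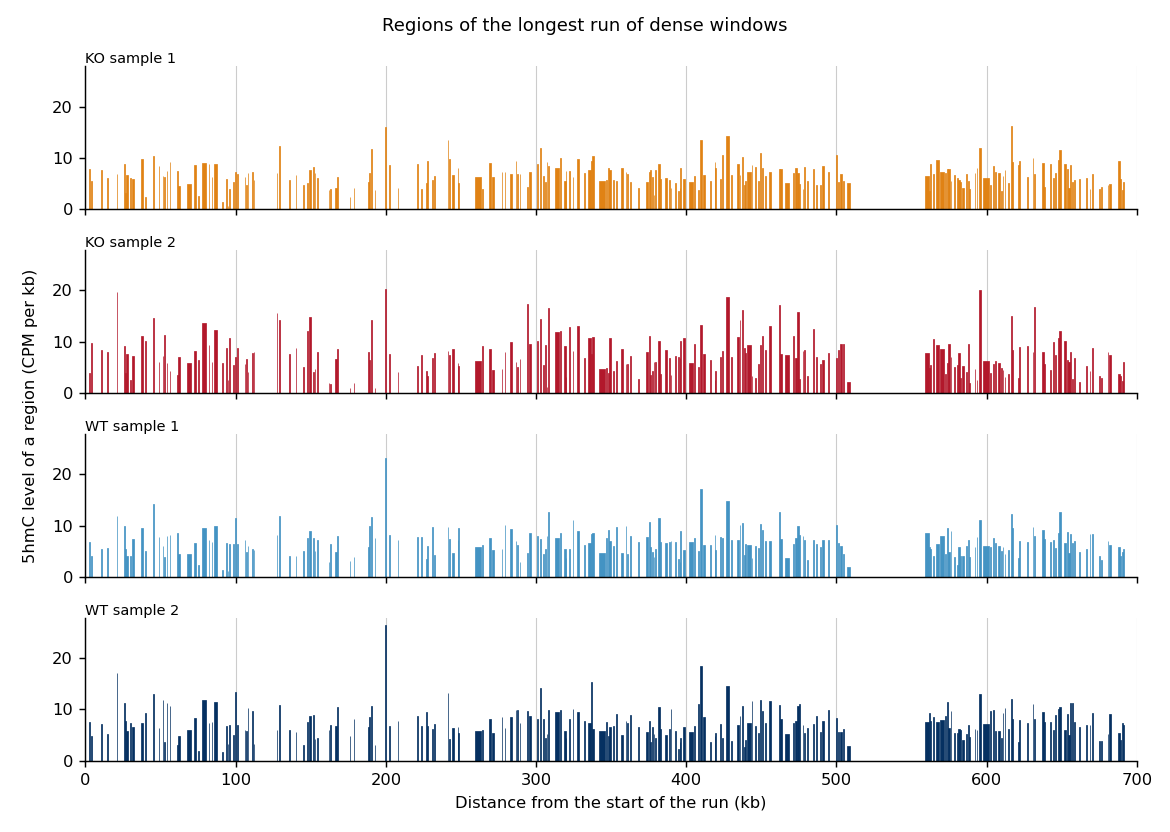
5hmC level (CPM per kb) of the 236 regions in the longest run of dense windows, against distance from the start of the run in kb, with 1 panel per library on a shared scale. Bars are as wide as their region, and vertical lines mark window borders every 100 kb. Several regions stand out in all panels, the strongest near 200 kb reaches 26.5 in WT2, and no region was called over 50352 bp in the sixth window.

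The next longest runs were 5 runs of 5 windows each, and those with the most regions were chr7:56300000-56799999 and chr9:61100000-61599999. The run on chr7 held 206 regions that covered 30.5% of 500 kb, at 6.62 CPM per kb in KO1, 9.69 in KO2, 7.20 in WT1 and 7.53 in WT2. The run on chr9 held 160 regions that covered 22.4%, at 7.72, 9.31, 8.02 and 8.42 CPM per kb. In both runs KO1 was the lowest library and KO2 the highest. The same order held in chr2:167500000-167999999 (145 regions), at 7.63, 10.4, 8.48 and 9.23 CPM per kb. In the other runs of 5, chr4:97200000-97699999 and chr12:54700000-55199999 (149 regions each), the order was the opposite, with KO2 lowest and KO1 highest. The levels were 6.96, 4.46, 6.50 and 5.77 CPM per kb in the run on chr4 and 7.05, 5.26, 6.82 and 6.53 in that on chr12. The log2 ratio to the WT mean was -0.15 in KO1 and 0.43 in KO2 for the run on chr7.

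To ask whether loss of Tet1 altered 5hmC in these domains, counts were summed per window and the genotypes were compared in edgeR (quasi-likelihood), with a fit on all 19471 autosomal windows that passed the filter for low counts. All 971 dense windows passed. With edgeR, 0 of 971 had an adjusted p under 0.05, where the share over all tested windows was 0.0%. None had an unadjusted p under 0.05 either, against 1.01% of all tested windows. DESeq2 gave 0 dense windows past the adjusted threshold (0.0% of all tested windows) and 1 (0.103%) at an unadjusted p under 0.05, against 0.842% of all tested windows.

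The same test on single regions gave a like count. Of the 29108 regions in dense windows 28592 passed the filter for low counts and 516 did not. With edgeR, 0 of 28592 had an adjusted p under 0.05 (0.0% over all 176957 tested regions), and DESeq2 gave 1 (0.0035%), against 0.00339% of all tested regions. At an unadjusted p under 0.05, edgeR gave 624 of 28592 (2.18%). Over all tested regions the share was 2.81%, and the difference between these shares was not tested.

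Fitted differences in dense windows were small. The log2 ratio of KO to WT ran from -0.52 to 0.38, with a median of 0.07 and a median standard error of 0.18. It was under 0.25 in size in 921 of the 971 windows and over 0.5 in 1. Over all tested windows the median was 0.02. The ratio was above 0 in 728 dense windows (74.97%) and in 52.9% of all tested windows. Scaling by total counts moved the dense median to 0.06, and the size factors of DESeq2 moved it to 0.08. Single regions of dense windows had a median of 0.05, against 0.02 over all tested regions.

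The KO libraries did not share this excess of positive ratios. Set against the mean of the WT libraries on the log2 scale (a pseudocount of 0.1 CPM was added), the median dense window was at -0.05 in KO1, 0.20 in KO2, -0.04 in WT1 and 0.04 in WT2. KO1 was above the WT mean in 335 of 971 windows (34.5%) and KO2 in 750 (77.2%). Over all tested windows these shares were 50.7% and 49.1%. KO2 reached from -0.84 to 0.71 over the dense windows with an SD of 0.24, KO1 from -0.65 to 0.43 with an SD of 0.13, and the WT libraries had an SD of 0.06. WT1 was above the WT mean in 242 windows (24.9%) and WT2 in 729 (75.1%). The median difference of KO1 minus WT1 was -0.02, so under the scaling used KO1 lay about where WT1 did. Under the same scaling KO2 lay above both WT libraries in the median dense window. By plain share of autosomal counts, dense windows held 18.0% in KO1, 13.9% in KO2, 16.8% in WT1 and 13.8% in WT2. By that measure KO1 was the highest and KO2 lay between the WT libraries, so these positions depend on the scaling.

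The genotypes overlapped in most dense windows. Both KO libraries were above both WT libraries in 118 dense windows (12.2%), where the share of all tested windows was 12.1%. Both were below in 39 (4.02%), against 12.6% of all tested windows. The other 814 overlapped. Among regions of dense windows, 4698 (16.4%) had both KO libraries above both WT libraries and 4088 (14.3%) had both below, against 15.3% and 15.6% of all tested regions.

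The test on windows turned on which KO library was kept. Without KO1, 253 dense windows (26.1%) were called higher in KO and 38 (3.91%) lower at an adjusted p under 0.05 by edgeR, against 10.7% and 9.24% of all tested windows. Without KO2, 0 were called higher and 3 (0.309%) lower, against 0.101% and 0.613% of all tested windows. For regions of dense windows the calls were 2005 (6.99%) without KO1 and 199 (0.694%) without KO2, where the shares over all tested regions were 7.51% and 1.09%. Without either WT library 0 dense windows and 0 regions were called. With a lone KO library its spread is taken to be that of the WT pair, so these counts compare single libraries with WT and are not calls for the genotype.

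The 3 windows called lower without KO2 were chr2:31300000-31399999, chr11:3000000-3099999 and chr15:76000000-76099999, of which the first and last are named here after their values were seen. In chr2:31300000-31399999 the levels were 4.23 CPM per kb in KO1, 8.75 in KO2, 5.72 in WT1 and 6.25 in WT2. In chr15:76000000-76099999 they were 5.89, 10.6, 8.13 and 8.35 in the same order. In both, KO2 was far above WT and KO1 below it, so the call was opposite to what the other KO library showed.

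Measured as a coefficient of variation, the spread within each genotype was tighter in dense windows than in all windows. The biological coefficient of variation (BCV), the spread that remains after counting error, was 0.189 between the KO libraries over dense windows and 0.33 over all windows. Between the WT libraries it was 0.0599 and 0.117. KO1 and WT1 differed by 0.0555 over dense windows, less than either pair of 1 genotype, and KO2 and WT2 by 0.126. Over all windows KO1 and WT1 differed by 0.129, more than the WT pair. Spearman's rho of window levels over the 971 dense windows was 0.39 between the KO libraries, 0.84 between the WT libraries, 0.76 between KO1 and WT1 and 0.79 between KO2 and WT2. Over all windows these were 0.50, 0.82, 0.76 and 0.79, so by rho the KO libraries were less alike in dense windows. Each rho describes windows that share covered length and scaling.

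The shift of KO2 followed density across all windows and levelled off before the dense ones. Its median log2 ratio to the WT mean was -0.37 in windows of 1 to 4 midpoints, -0.06 at 5 to 9, 0.08 at 10 to 14, 0.15 at 15 to 19 and 0.20 at 20 to 24. In dense windows it was 0.20 at 25 to 29, 0.20 at 30 to 34 and 0.18 at 35 or more. KO1 went from 0.10 to between -0.06 and -0.04 over the same classes. WT1 went from 0.06 to -0.04, and WT2, its mirror by construction, from -0.06 to 0.04. Dense windows were thus not set apart from windows of 20 to 24 midpoints in any library.

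Single regions gave smaller medians than window sums in the dense classes. Over all tested regions, the median log2 ratio of KO2 to the WT mean was -0.41 in the sparsest class, -0.02 at 10 to 14 midpoints, 0.12 at 25 to 29, 0.10 at 30 to 34 and 0.08 at 35 or more. In regions with a mean of 40 to 60 counts over the 4 libraries it was -0.34, -0.02, 0.05, 0.03 and -0.01 in the same classes. With 40 to 60 counts as the mean of the WT libraries alone it was -0.50, -0.11, -0.01, -0.04 and -0.04. The median of KO2 was thus lowest in the sparsest class in each case. Under the scaling over regions, its sign in the dense classes depended on which regions were taken. These classes were chosen after seeing the data, and the part of count in this pattern was not tested.

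Within the dense windows the distance between the KO libraries went with the level of the window. The 971 windows were put in 5 groups by their WT level, which the KO libraries do not enter. From the lowest group to the highest, the median log2 difference of KO1 minus KO2 was 0.02, -0.14, -0.28, -0.33 and -0.43. KO1 was above KO2 in 101 of 195 windows of the lowest group and in 8 of 194 of the highest. The same was seen at a smaller size between the WT libraries in groups by KO level, where WT1 minus WT2 went from -0.02 to -0.11. Over all 971 windows Spearman's rho was -0.43 between KO libraries and -0.28 between WT libraries, as descriptions. The number of midpoints did not go with the difference between the KO libraries (rho 0.02), and the median width did so weakly (rho -0.16). KO2 and WT2 were thus relatively higher, against KO1 and WT1, where the level was higher.

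**Figure D5:**
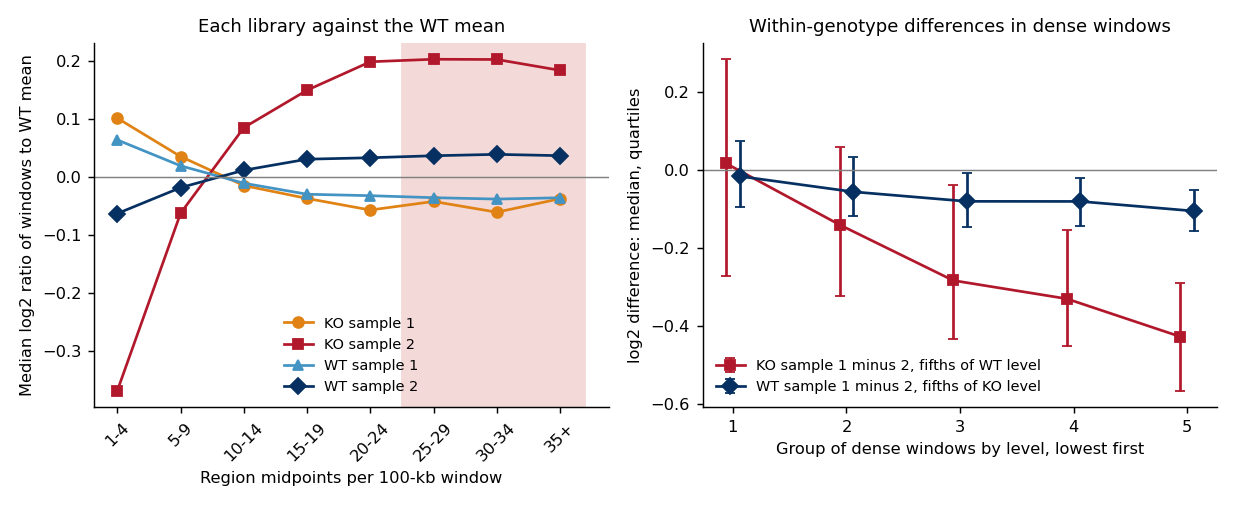
Left, median log2 ratio of windows to the mean of the WT libraries, by midpoints per window, with 1 line per library and the dense classes shaded. KO2 rises from -0.37 to 0.20 and stays there, and the other libraries stay within 0.1 of 0 in the dense classes. Right, log2 difference between libraries of 1 genotype in 5 groups of dense windows ordered by the level in the other genotype, as the median with bars from the 25th to the 75th percentile. The KO difference falls from 0.02 to -0.43 and the WT difference from -0.02 to -0.11.

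The dense windows with the lowest unadjusted p and KO higher were chr16:92200000-92299999, chr19:25300000-25399999 and chr1:135800000-135899999. In chr16:92200000-92299999 (28 regions) the levels were 7.57 CPM per kb in KO1, 8.57 in KO2, 6.73 in WT1 and 6.42 in WT2. Both KO libraries were above both WT libraries, and the log2 ratio was 0.31 ± 0.17 (SE; edgeR, adjusted p = 0.9998). In chr19:25300000-25399999 (25 regions) the levels were 6.54, 8.53, 6.15 and 5.84, for a log2 ratio of 0.35 ± 0.19 (SE; edgeR, adjusted p = 0.9998). In chr1:135800000-135899999 (28 regions) they were 9.42, 13.0, 8.77 and 8.74, for 0.38 ± 0.21 (SE; edgeR, adjusted p = 0.9998). In each of them KO1 was closer to WT1 than to KO2.

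The windows with the lowest unadjusted p and KO lower were chr11:3000000-3099999, chr15:39600000-39699999 and chr3:9800000-9899999. In chr15:39600000-39699999 (28 regions) the levels were 6.31 and 5.62 CPM per kb in the KO libraries and 7.19 and 7.39 in the WT libraries, with no overlap. Its log2 ratio was -0.27 ± 0.16 (SE; edgeR, adjusted p = 0.9998). In chr3:9800000-9899999 (25 regions) they were 5.41 and 3.78 against 5.66 and 5.77, with KO1 just under WT and KO2 well under it, for a log2 ratio of -0.30 ± 0.20 (SE; edgeR, adjusted p = 0.9998).

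The window chr11:3000000-3099999 was unlike the other dense windows in several respects. It is the dense window of lowest coordinates on chr11, and its 44 regions had a median width of 290 bp (180 to 1572 bp), the narrowest of all 971 dense windows, of which the next had 304 bp and the widest 1021 bp. Its mean level of 14.2 CPM per kb was among the 3 highest. It had 3772 counts in KO1, 3265 in KO2, 4310 in WT1 and 5787 in WT2, or 10.5, 12.6, 13.7 and 19.96 CPM per kb. Both KO libraries were below both WT libraries, yet the WT libraries differed from each other more than KO2 did from WT1. The log2 ratio of -0.52 ± 0.24 (SE; edgeR, unadjusted p = 0.0627, adjusted p = 0.9998) was the only one over 0.5 in size.

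As a description of a window chosen for its low p, 29 of its 44 regions had both KO libraries below both WT libraries, 2 had both above and 13 overlapped, beside 15.6% below and 15.3% above over all tested regions. The median region had 10.93 CPM per kb in KO1, 10.95 in KO2, 15.04 in WT1 and 22.6 in WT2. Leaving out KO1 gave a log2 ratio of -0.38 (edgeR, adjusted p = 0.0342), and leaving out KO2 gave -0.68 (edgeR, adjusted p = 0.0127). Both values share the same WT libraries and compare a lone KO library with them, so neither is independent of the other. The ratio was -0.78 without WT1 and -0.21 without WT2, so its size rested on WT2, and over all alternatives the adjusted p (edgeR or DESeq2) ran from 0.0127 to 1.0. How reads that match several places were treated is not given in the sources used here, and its part in the counts of this window was not tested.

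The highest levels among dense windows were 17.6 CPM per kb in chr14:70000000-70099999 (29 regions), then chr11:3000000-3099999, then 11.2 in chr4:138700000-138799999 (27 regions). The window on chr14 had 15.4 CPM per kb in KO1, 20.7 in KO2, 16.9 in WT1 and 17.2 in WT2. Its median region had 10.1, 14.5, 12.4 and 11.4, lower than the window as a whole, and its strongest region by count held 12.7% of the counts. The window on chr4 had 8.29, 14.3, 10.5 and 11.5 CPM per kb, and 19.8% of its counts lay in 1 region. In both, the KO libraries lay on opposite sides of the WT libraries. Of the 100 regions of highest level in dense windows, 9 lay in the window on chr11 and 6 in that on chr14, and the 100 were spread over 80 windows.

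The lowest levels were 4.85 CPM per kb in chr1:108100000-108199999 (30 regions), 5.15 in chr4:82100000-82199999 (34 regions) and 5.15 in chr3:9800000-9899999. In chr1:108100000-108199999 the levels were 5.92 in KO1, 3.16 in KO2, 5.42 in WT1 and 4.91 in WT2. In chr4:82100000-82199999 they were 6.19, 4.06, 5.40 and 4.96. KO2 was the lowest library in all 3, whereas it was the highest in chr14:70000000-70099999 and chr4:138700000-138799999. The window chr4:82100000-82199999 adjoins the dense window chr4:82000000-82099999 described above, which had the same order of libraries.

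The single region called by DESeq2 was chr15:97597021-97597870 (850 bp), named here after its values were seen. It had 106 counts in KO1, 124 in KO2, 15 in WT1 and 20 in WT2, or 5.83, 9.46, 0.94 and 1.36 CPM per kb. Both KO libraries were well above both WT libraries. The log2 ratio was 2.72 ± 0.48 (SE; edgeR, unadjusted p = 3.67e-05, adjusted p = 0.99996), and DESeq2 gave 2.74 (adjusted p = 0.0329). The whole window chr15:97500000-97599999 (26 regions) had 9.47, 11.2, 9.02 and 9.63 CPM per kb, so the difference was in single regions and not along the window.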

How the data were processed

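The deposited table holds raw counts of reads over 1 list of regions shared by the 4 5hmC libraries. 5hmC was tagged with an azide-glucose and biotin and affinity-purified before sequencing. The submitters' processing notes name Bowtie2 2.2.6 and mm9. How regions were called, reads counted, duplicates removed and reads with several matches placed is not given in the sources used here. The inputs (2 libraries) were not used here. Coordinates are those of the table; regions on 9 of its 22 chromosomes end past GRCm38, the only genome at hand, so regions were not assigned to genes and no sequence was read.

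Regions, and counts summed per 100-kb window, were filtered with filterByExpr (minimum count 10, minimum total 15), scaled by TMM and tested with edgeR 4.0.16 (quasi-likelihood, R 4.3.3), with Benjamini-Hochberg adjustment over all tested features. CPM per kb is CPM by library size TMM-scaled over regions, divided by the kb of covered length. Log2 ratios of windows and runs to the WT mean used sizes TMM-scaled over windows. They can therefore differ from ratios of the printed levels. The order of the libraries within a window rests on the scaling. Single values were compared by exact permutation tests, two-sided. Counting errors assume independent reads. Alternatives were DESeq2 1.42.0, total-count scaling, other filters, the replicate block, each library left out, a grid shifted by 50 kb, and dense sets at 20 or 30 midpoints. Named windows were the 10 densest (ties by covered length), the 3 lowest p in each direction, the 3 longest runs (ties by number of regions), the 3 highest and 3 lowest levels, and the strongest region of the 3 densest. The members and rules were chosen with earlier results of these data known.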

Additional observations from a re-analysis of the deposited data

How the results depend on the processing

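No dense window passed the threshold with DESeq2, total-count scaling, the replicate block, without either WT library, on a grid shifted by 50 kb, or at 20 or 30 midpoints. Leaving out each library in turn gave 0 to 291 dense windows and 0 to 2005 regions called, the highest without KO1. A lone library is taken to vary like the other group. The share of counts in dense windows, KO minus WT, ran from -1.40 to 2.69 percentage points, below 0 without KO1 (-1.40) and without WT2 (-0.82). The median ratio of dense less all windows ran from -0.05 (without KO2) to 0.22 (without KO1), against 0.06 with all libraries. DESeq2 called 1 region. The level ratio was 1.08 at a mean count of at least 20. The width difference was 107 bp on the shifted grid, 96 bp at 20 midpoints and 123 bp at 30. The shifted grid gave 988 windows, and 60.1% of the regions were shared with it. What brought these changes about was not tested.

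A replicate block on the sample number led to 5 calls among regions of dense windows, all higher in KO, 0.0175% of those tested against 0.0446% (79) of all tested regions: chr15:97597021-97597870, chr15:97548226-97549039, chr1:135858031-135858922, chr4:53208764-53210254 and chr7:91233627-91234791. No other call changed. Same-numbered libraries deviated together over dense windows (correlation 0.51; 0.40 over all tested windows), but with 2 pairs and no label of a shared batch the number was not taken to pair them. The block turned chr4:82100000-82199999 from 0.00 to -0.025, and total-count scaling turned chr4:138700000-138799999 from 0.06 to -0.014.

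Leaving out libraries reversed the log2 ratio of 10 named windows. The ranges were -0.00080 to 0.19 at chr4:153900000-153999999, -0.18 to 0.49 at chr7:56500000-56599999, -0.42 to 0.14 at chr4:82000000-82099999, -0.23 to 0.34 at chr4:154500000-154599999, -0.13 to 0.45 at chr7:56400000-56499999, -0.24 to 0.084 at chr18:47400000-47499999, -0.15 to 0.31 at chr14:70000000-70099999, -0.41 to 0.41 at chr4:138700000-138799999, -0.67 to 0.20 at chr1:108100000-108199999 and -0.32 to 0.26 at chr4:82100000-82199999. With 2 libraries a genotype, the median standard error of a dense window was 0.18 on the log2 scale, and ratios as large as 0.38 and -0.52 did not pass the test.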
